A study of Mus musculus with 6 samples.

Results

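The glucocorticoid response genes described here are 10 genes of the steroid stress-hormone pathway, taken by symbol from the 55487 genes of the deposited aorta table. They are the receptor gene Nr3c1, the hormone-activating enzyme gene Hsd11b1, and 8 genes widely known as receptor targets: Fkbp5, Tsc22d3, Zbtb16, Cebpd, Per1, Sgk1, Errfi1 and Pdk4. The set was selected on measured values: it was proposed because the normalized counts of Cebpd and Zbtb16 are lower in the 3 libraries labelled ChemR23-deficient. The group difference of every member is therefore a description and is given without a test. All 10 had a mean normalized count of at least 1, the minimum for the fit over all genes.

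The tissue was mouse aorta freed of its outer coat, the adventitia, so that media and intima remained. All mice lacked Apoe, the apolipoprotein whose loss raises plasma cholesterol, and all had received Apoe-/- bone marrow with an intact receptor gene at 8 to 10 weeks of age. In 3 libraries the recipients were labelled Apoe-/- with the ChemR23 e/e genotype ("labelled deficient"), described by the labels as lacking the receptor in non-hematopoietic cells, and in 3 they were labelled Apoe-/- only ("labelled control"). All mice then recovered for 4 weeks and ate Western diet for another 6, with 21% fat and 0.15 to 0.2% cholesterol in it. Cmklr1 is the gene of ChemR23, which binds the protein chemerin and a lipid that helps to end inflammation. The sources used here do not give the part of Cmklr1 that the e allele lacks, the hour at which tissue was taken, the sex of the mice, how many mice made a library, or how much host blood remained.

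Several facts of the libraries touch all results below. Cmklr1 was at 2388, 1788 and 1551 normalized counts in the labelled deficient libraries and at 1396, 1028 and 1720.2 in the labelled controls, so the targeted gene does not check the labels. The authors' deposited table also has mean columns named treated and control, and over all 55487 genes its treated mean is the mean of the 3 libraries labelled control. All directions here follow the sample labels. Labelled deficient replicates 1 and 2 held 13145 to 16083 normalized counts of Xist, against 373 for replicate 3 and 8.87 to 22.0 for the controls, and 0 to 8.54 of Y-linked Ddx3y, against 6058 to 6796 in the other 4 libraries. Sex pattern and group thus overlap, and only labelled deficient replicate 3 shares the controls' Ddx3y level. The libraries held 30887855 to 38600604 reads assigned to genes. The 8 smooth muscle markers summed to between 1281681 and 1722657 normalized counts and the 7 endothelial markers to between 68336 and 97208, none of them at 0 in any library.

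Glucocorticoids reach cells as active hormone or as an inert form that the enzyme of Hsd11b1 reactivates. The bound receptor leaves its chaperone complex, enters the nucleus and acts on genes near palindromic elements, raising some genes and damping inflammatory ones. Several of its targets act back on the pathway: the FKBP51 protein of Fkbp5 lowers the receptor's affinity for hormone, and the GILZ protein of Tsc22d3 carries part of the anti-inflammatory action. In the vessel wall the receptor is present in smooth muscle, endothelium and macrophages.

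Promoter sequence shows which of these genes carry the receptor's letters at a start site itself. RefSeq start sites (GRCm38.p6) were available for 7 of the 10 members, with 16 start sites among them. Zbtb16, Cebpd and Nr3c1 had no sequence to use. In the 250 bases before each start the full palindrome (AGAACA, then 3 bases of any kind, then its reverse complement TGTTCT) was found, on either strand, at 1 member start site, in Sgk1, and in 0.00913% of all 32851 windows. Its hexamer AGAACA, which the palindrome contains, was found on either strand at 4 member start sites, 3 of Sgk1 and 1 of Tsc22d3, and in 16.1% of all windows. The E-box CACGTG, the letters bound by the clock proteins CLOCK and BMAL1, was found once each in Per1, Fkbp5 and Sgk1 and in 6.02% of all windows. Of the 6 member windows with a match, 4 are printed, 1 for each gene, to show the letters searched for in their context; the genes were called targets from general knowledge, not from these matches. Capitals mark the palindrome and the hexamer in Sgk1, the hexamer (reverse strand) in Tsc22d3, and the E-box in Per1 and Fkbp5. The first hexamer of the Sgk1 window shares bases with that window's E-box.
Sgk1, chr10:21993640-21993889, plus strand: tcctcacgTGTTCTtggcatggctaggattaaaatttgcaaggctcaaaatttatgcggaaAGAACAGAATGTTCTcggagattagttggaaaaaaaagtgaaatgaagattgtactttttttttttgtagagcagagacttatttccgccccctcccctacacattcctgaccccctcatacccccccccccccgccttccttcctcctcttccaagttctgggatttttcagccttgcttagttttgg
Tsc22d3, chrX:140600523-140600772, minus strand: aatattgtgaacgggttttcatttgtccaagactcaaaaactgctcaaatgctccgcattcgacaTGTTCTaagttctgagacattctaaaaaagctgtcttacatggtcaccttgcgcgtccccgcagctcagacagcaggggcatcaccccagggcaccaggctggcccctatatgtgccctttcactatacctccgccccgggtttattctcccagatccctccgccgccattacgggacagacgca
Per1, chr11:69098699-69098948, plus strand: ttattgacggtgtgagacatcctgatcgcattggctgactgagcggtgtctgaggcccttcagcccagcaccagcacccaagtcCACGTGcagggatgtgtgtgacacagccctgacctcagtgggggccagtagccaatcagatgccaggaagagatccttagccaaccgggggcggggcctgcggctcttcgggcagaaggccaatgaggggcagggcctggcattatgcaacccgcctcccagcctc
Fkbp5, chr17:28486150-28486399, minus strand: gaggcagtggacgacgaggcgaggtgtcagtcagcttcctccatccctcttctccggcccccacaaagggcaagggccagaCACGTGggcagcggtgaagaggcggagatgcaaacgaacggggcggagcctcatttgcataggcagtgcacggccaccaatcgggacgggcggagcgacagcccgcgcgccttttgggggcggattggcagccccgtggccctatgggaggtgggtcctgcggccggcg
The Sgk1 palindrome begins 189 bases before its start, the Tsc22d3 hexamer 185, the Per1 E-box 166 and the Fkbp5 E-box 169. A match is a run of letters, and the data hold no measure of binding there.

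Levels per length differed widely among the members. Per kilobase of annotated exon (GENCODE M21), Zbtb16 had the highest mean level in the labelled controls, at 1373 ± 1032 normalized counts per kb (SD, n = 3), followed by Nr3c1 at 1030 ± 66.8, Errfi1 at 944 ± 293, Pdk4 at 891 ± 507 and Sgk1 at 756 ± 106. The SDs of neighbours in this order overlap, so neighbours do not differ beyond their spread, and Sgk1 stood clear of the next gene. Per1 (322 ± 119), Fkbp5 (291 ± 106), Tsc22d3 (205 ± 62.0) and Cebpd (165 ± 17.1) lay below them with spreads that overlap from neighbour to neighbour, and Hsd11b1 was lowest at 73.9 ± 13.4 normalized counts per kb. In the labelled deficient libraries Nr3c1 came to 1116 ± 32.2 normalized counts per kb, well apart from Sgk1 at 599 ± 10.5. Zbtb16 stood there at 225 ± 30.3 normalized counts per kb, and Fkbp5, at 74.0 ± 35.6, was beside Cebpd at 81.0 ± 9.08.

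**Figure D1:**
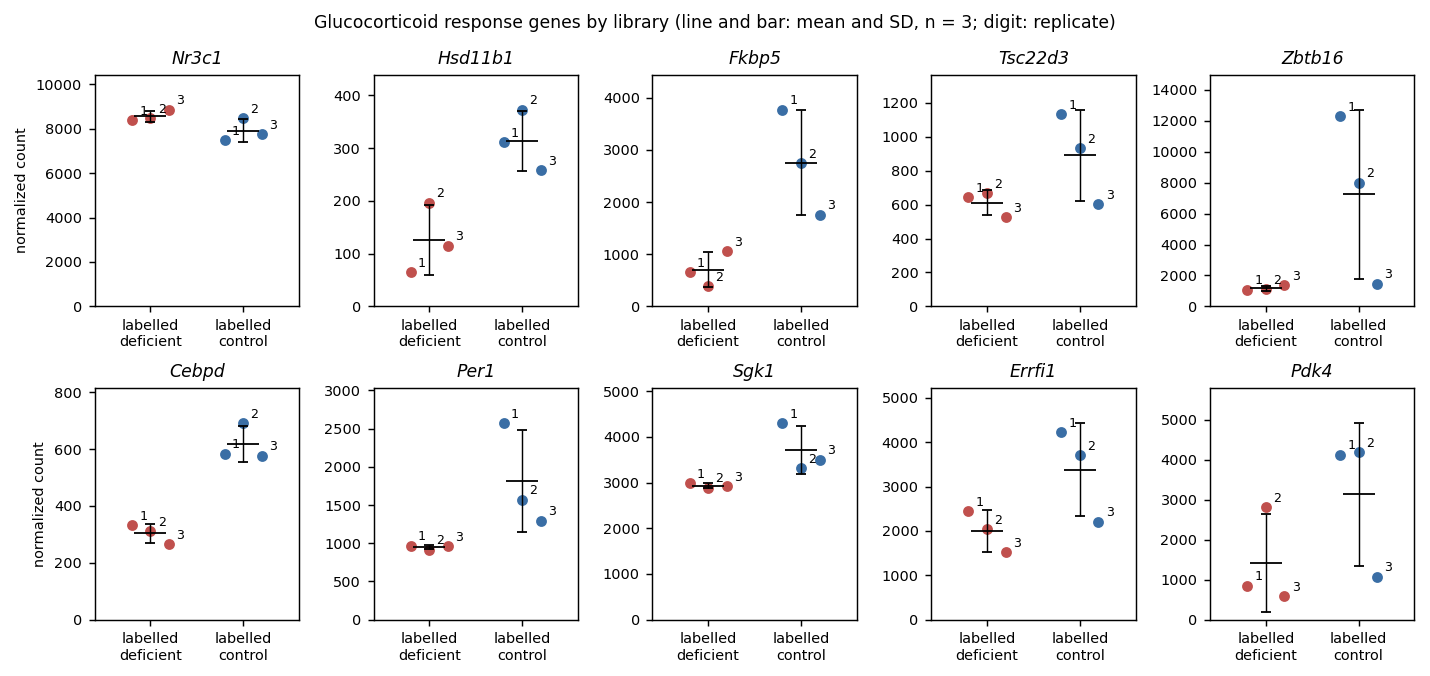
Normalized counts (vertical axes, starting at 0) of the 10 members in each library, with the mean and SD of each group of 3; digits are replicate numbers. The labelled control points of Zbtb16 run from 1461 to 12290.2, while those of Nr3c1 lie between 7492 and 8484.

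The receptor gene itself varied little between libraries. Nr3c1 (chromosome 18, 39410545 to 39519421, minus strand, GRCm38) was at 8382, 8484 and 8853 normalized counts in the labelled deficient libraries and at 7492, 8484 and 7761 in the controls. The groups overlap, and the mean log2 difference, labelled deficient minus control on the log2(normalized count + 1) scale, was 0.12 (SE 0.07). It is the 1 member with a higher mean in the labelled deficient group.

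Hsd11b1 (chromosome 1, 193221634 to 193264075, minus strand), whose enzyme regenerates active corticosterone in mice, was the least abundant member. It was at 64.6, 196 and 115 normalized counts in the labelled deficient libraries and at 311, 373 and 258 in the controls. Every labelled deficient library lay below every control, and the control mean was 2.51 times the labelled deficient mean (log2 difference -1.44, SE 0.36). H6pd, whose enzyme supplies the cofactor for this reaction, was at 2782, 2985 and 2941 against 3584, 4217 and 3284 (log2 difference -0.34, SE 0.10, 95% interval -0.57 to -0.12, limma adjusted p = 0.22). Hsd11b2, the enzyme gene that inactivates the hormone, was at 0 to 3.24 against 1.002 to 6.66 normalized counts, so few that no order can be read.

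Fkbp5 and Zbtb16 had the largest differences in mean among the members. Fkbp5 (chromosome 17, 28399094 to 28517527, minus strand) was at 655, 389.6 and 1058 normalized counts in the labelled deficient libraries and at 3768, 2746 and 1754 in the controls. The groups do not overlap, and the control mean of 2756 ± 1007 was 3.93 times the labelled deficient mean of 701 ± 337 (SD, n = 3 each; log2 difference -2.02, SE 0.38). Zbtb16 (chromosome 9, 48654297 to 48836222, minus strand), which encodes the zinc finger repressor PLZF, was at 1085, 1104 and 1371 against 12290.2, 8006 and 1461. Here control replicates 1 and 2 stand far above the rest, while control replicate 3 lies just above the highest labelled deficient library. The control mean of Zbtb16 was 6.11 times the labelled deficient mean (log2 difference -2.15, SE 0.68), but control replicate 3 alone was only 1.23 times that mean.

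Cebpd (chromosome 16, 15887286 to 15891031, plus strand) encodes C/EBP delta, a leucine zipper factor of inflammation and fat cell formation. It was at 332, 312 and 266 normalized counts in the labelled deficient libraries and at 583, 691 and 577 in the controls, a control mean 2.03 times the labelled deficient mean (log2 difference -1.02, SE 0.12). Its exons overlap an exon of Spidr on the other strand, and the sources used here give no strand setting for the counting, so part of its count may belong to Spidr.

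Per1 (chromosome 11, 69095217 to 69109960, plus strand), a core clock gene that the receptor also induces, was at 969, 916 and 958 normalized counts in the labelled deficient libraries and at 2572, 1569 and 1297 in the controls. Sgk1 (chromosome 10, 21882184 to 21999903, plus strand), a kinase of ion transport and cell survival and the gene with the palindrome printed above, was at 2992, 2889.8 and 2927 against 4299.5, 3321 and 3503. Neither gene's groups overlap. The control mean was 1.91 times the labelled deficient mean for Per1 (log2 difference -0.87, SE 0.22) and 1.26 times for Sgk1 (log2 difference -0.33, SE 0.10). The labelled deficient libraries were close to each other in both, within 1.06-fold for Per1 and 1.04-fold for Sgk1.

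Tsc22d3, Errfi1 and Pdk4 had lower labelled deficient means but overlapping groups. Tsc22d3 (chromosome X, 140539528 to 140600659, minus strand) was at 643, 668 and 526 normalized counts against 1135, 933 and 602. Control replicate 3 lies inside the labelled deficient range (log2 difference -0.50, SE 0.22). Errfi1 (chromosome 4, 150853919 to 150868892, plus strand), whose product inhibits the epidermal growth factor receptor, was at 2439, 2043 and 1515 against 4226, 3706 and 2207 (log2 difference -0.73, SE 0.26). Again it is control replicate 3 that overlaps. Pdk4 (chromosome 6, 5483351 to 5496309, minus strand), a kinase that turns glucose oxidation down, was at 844, 2816 and 587 against 4123, 4187 and 1072 (log2 difference -1.24, SE 0.68). Labelled deficient replicate 2 and control replicate 3 crossed between the groups.

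Over the 10 members, 9 had a lower labelled deficient mean, against 51.2% of the 20669 genes tested. In 6 members every labelled deficient library lay below every control, against 8.24% of those genes. None (0) lay higher without overlap, against 8.8% of genes. The median log2 difference was -0.95 for the members and -0.01 for all genes tested. Over all genes tested, limma called 28 at an adjusted p under 0.05 (0.135%). Of these, 15 were higher and 13 lower, or 8 and 11 with libraries scaled to equal totals. No call is given for the members, since the set was chosen on these values. The member counts above describe the choice of the set, and nothing is read from them.

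**Figure D2:**
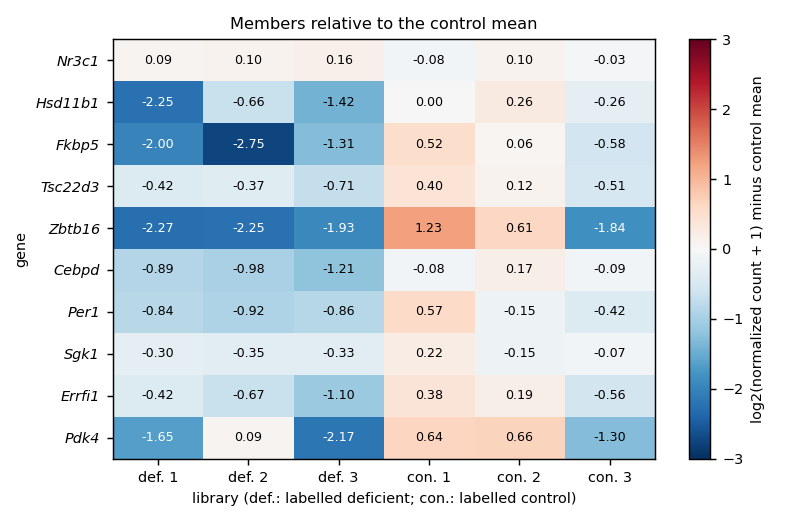
Each cell gives log2(normalized count + 1) of a member (rows) in a library (columns) minus the mean of the 3 labelled controls, also shown by colour. The median over the 10 members is -0.86, -0.67 and -1.16 in labelled deficient replicates 1 to 3 and 0.39, 0.14 and -0.47 in control replicates 1 to 3.

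The spread among the controls was itself large in most members and is given as a description. Control replicate 3 was the lowest of the 3 controls in 8 of the 10 members, all but Sgk1 and Nr3c1, whereas it was the lowest in 31.1% of all genes tested. Control replicate 1 was the highest in 6 members (Fkbp5, Tsc22d3, Zbtb16, Per1, Sgk1 and Errfi1) and control replicate 2 in the other 4, against 30.04% and 37.8% of all genes. Zbtb16 ranged 8.41-fold among the controls, a wider log2 range than in 99.7% of 11635 genes whose mean reached 100. For Pdk4 the range was 3.91-fold (wider than 99.1% of genes), for Fkbp5 2.15-fold (97.4%) and for Per1 1.98-fold (96.6%). Nr3c1, at 1.13-fold, was wider than only 38.9% of genes.

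The labelled deficient libraries had another pattern of spread. Zbtb16 ranged 1.26-fold there, wider than 73.9% of genes, and Sgk1 and Per1 were narrower than most genes, with only 4.75% and 11.7% of genes narrower still. Pdk4 (4.79-fold), Hsd11b1 (3.04-fold) and Fkbp5 (2.72-fold) varied most. Zbtb16, Fkbp5 and Pdk4, 3 of the 4 members with the largest log2 differences between the groups, thus also differed strongly among the controls.

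Set against control replicates 1 and 2 alone, the members' median log2 difference was -1.08, and all labelled deficient libraries lay below both controls in 9 members, against 13.3% of genes tested. Set against control replicate 3 alone, the median was -0.28, and all labelled deficient libraries lay below it in 6 members, against 27.9% of genes. Control replicate 3 is the lowest control in 8 of the 10 members, so the gap between these medians is built into the split. Fkbp5, Cebpd and Hsd11b1 kept a distance from control replicate 3, which was 2.50, 1.90 and 2.06 times the labelled deficient mean. For Per1 the ratio was 1.37, for Sgk1 1.19 and for Errfi1 1.10, while for Tsc22d3 it was 0.98 and for Pdk4 0.76. Labelled deficient replicate 3, the one with the controls' Y-linked pattern, had a member median of -1.16 against the 3 controls, and replicates 1 and 2 had medians of -0.86 and -0.67. The part of sex in the members' values was not tested.

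Other genes of the pathway were read from lists drawn up from general knowledge of the pathway. Among 28 further genes that glucocorticoids induce in 1 tissue or another, 26 had enough counts to be tested. Of these 2 passed limma, both lower, and 0 passed higher, against 0.0629% lower and 0.0726% higher among all genes. The pair is Mt1 and Mt2, the metallothionein genes, which respond to both metals and glucocorticoids; that they fell was known from earlier results of these data. Mt1 was at 1891, 2037 and 1995 normalized counts in the labelled deficient libraries and at 4846, 4296 and 4006 in the controls (log2 difference -1.15, SE 0.08, limma adjusted p = 0.0194). Mt2 was at 831, 826 and 754 against 2174, 2006 and 1519.8 (log2 difference -1.23, SE 0.13, limma adjusted p = 0.045). Both groups stay apart in both genes, and control replicate 3 is the lowest control in both. With 1 library left out at a time, the limma adjusted p ran from 0.00413 to 0.0937 for Mt1 and from 0.0122 to 0.174 for Mt2, and the calls held only without labelled deficient replicate 3 or without control replicate 3. In the former case sex pattern and group coincide.

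Over the 26 tested genes of the induced list the median log2 difference was -0.24. It was below 0 in 17 genes and above in 9, against 51.2% of all genes below 0. In 6 genes the labelled deficient libraries lay below the controls without overlap, against 8.24% of all genes. In 2 they lay above, against 8.8%. The unadjusted p was under 0.05 in 7 lower and 2 higher genes, against 12.2% of all genes in either direction. DESeq2 on the recovered reads called 6 lower and 2 higher, against 4.38% of all genes, and edgeR called 1, Mt1, against 0.00658%. Of the list genes named in the text, all but Mt1, Mt2, Vcam1, Icam1, Hsp90ab1, Hspa8, Tsc22d1, Fkbp4 and Bhlhe40 were chosen after their values were seen. Klf15, a metabolic transcription factor, was at 1485, 1536 and 1341 against 2972, 2089.7 and 1665 normalized counts (log2 difference -0.59, SE 0.19, limma adjusted p = 0.27). Fam107a, a stress-induced actin-binding protein gene, differed by -0.82 on the log2 scale (SE 0.25, limma adjusted p = 0.243) and Cdkn1a, a cell cycle inhibitor, by -0.69 (SE 0.21, limma adjusted p = 0.254).

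In Dusp1, Ddit4 and Nfkbia, also widely used targets, the groups overlapped. Dusp1, a phosphatase that shuts down stress kinases, was at 10579, 14959 and 16241 against 11652, 6029 and 11756 normalized counts (log2 difference 0.55, 95% interval -0.08 to 1.17). Ddit4, an inhibitor of growth signalling, differed by 0.01 (95% interval -0.65 to 0.68) and Nfkbia, the NF-kappaB inhibitor, by -0.20 (95% interval -0.54 to 0.13). Rgs2, a brake on G protein signalling, was at 2034, 2789 and 2719 against 1109, 1541 and 882 (log2 difference 1.12, SE 0.21, limma adjusted p = 0.095), without overlap and on the opposite side from the members. Control replicate 3 was the lowest control in 18 of the 26 tested genes of this list, against 31.1% of all genes.

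**Figure D3:**
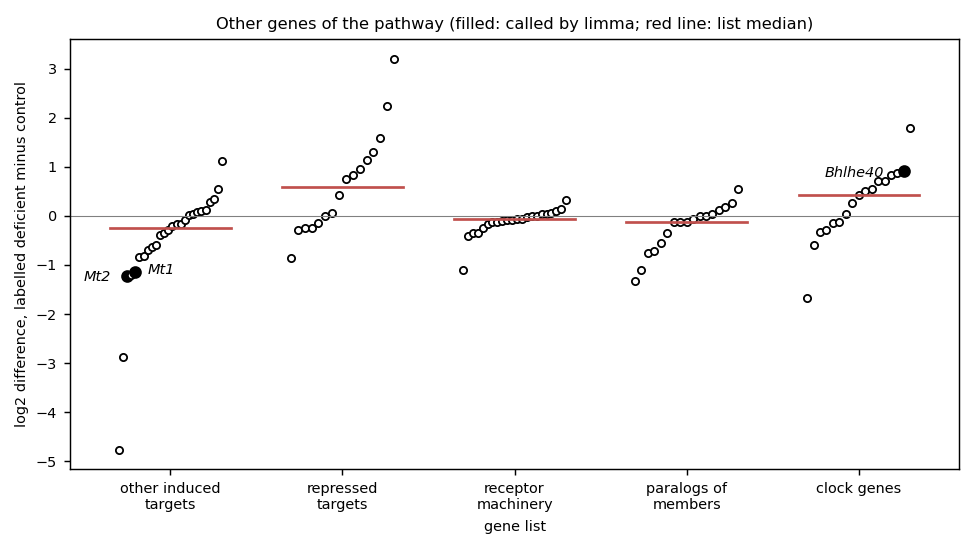
Log2 difference of each tested gene, labelled deficient minus control, in 5 lists (points; filled where limma called the gene) with the list median as a red line. The medians are -0.24 for other induced targets, 0.59 for repressed targets, -0.07 for receptor machinery, -0.13 for paralogs and 0.41 for clock genes. Several repressed targets, among them Il6, Csf2 and Tnf, had few counts.

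Of 16 genes that glucocorticoids repress, 0 passed limma. The unadjusted p was under 0.05 in 4 higher and 1 lower gene (12.2% of all genes in either direction), DESeq2 called 2 higher and 1 lower (4.38% of all genes), and edgeR called 0. The median log2 difference was 0.59, with 10 above 0 and 6 below, against 51.2% of all genes below 0. That median includes genes with few counts: Il6 was at 0 to 7.60, Csf2 at 0 to 5.70 and Tnf at 2.22 to 14.2 normalized counts. Among genes with more counts, Ptgs2 differed by -0.01, Sele by 0.06 and Cxcl1 by 0.83. Vcam1, the leukocyte adhesion molecule and the most abundant of them, differed by 0.42 (SE 0.21, limma adjusted p = 0.48), and Icam1, next in abundance and with the same role, by -0.29 (SE 0.14, limma adjusted p = 0.455). Il1a, the cytokine interleukin-1 alpha, was at 103, 126 and 30.3 against 6.02, 6.66 and 9.02 normalized counts (log2 difference 3.19, SE 0.53, limma adjusted p = 0.0741). Mmp3, a matrix protease, was on the other side, at 834, 1115 and 1091 against 1708, 1800.2 and 2009 (log2 difference -0.87, SE 0.12, limma adjusted p = 0.0567). In the fit that leaves out labelled deficient replicate 3, in which group and sex pattern coincide, limma called 2 of the 16, Il1a higher and Mmp3 lower. The 9 macrophage markers summed to 24309.8 (replicate 1), 34687 (replicate 2) and 7768 (replicate 3) normalized counts in the labelled deficient libraries and to 4656, 8623 and 5743 in the controls. Lyz2 was the largest part of the labelled deficient sums, at 16075, 25364 and 4270, against 2576, 4854 and 2713 in the controls. Of the 9, 2 (Cd68 and Lgals3) were higher without overlap (8.8% of all genes). The others overlapped between the groups, with log2 differences from -0.44 (Mrc1) to 1.89 (Lyz2), among them Csf1r at 0.25 and Adgre1 at 0.28. The part of macrophages in the result was not tested.

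Among the receptor's chaperones, co-regulators and hormone enzymes, 0 of 22 genes passed limma (unadjusted p under 0.05 in 1 higher and 5 lower, against 12.2% of all genes; DESeq2 called 1 higher, against 4.38%; edgeR called 0), and the median log2 difference was -0.07. Hsp90ab1, the chaperone that holds the receptor ready for hormone, differed by -0.02 (95% interval -0.21 to 0.17) and Hspa8, a partner chaperone, by -0.42 (95% interval -0.83 to -0.01, limma adjusted p = 0.403). Nr3c2, the mineralocorticoid receptor gene, which binds the same hormone, differed by -0.06 (95% interval -0.50 to 0.39).

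Paralogs, the closest relatives of the members, were read in the same way. Of 17 tested 0 passed limma (unadjusted p under 0.05 in 1 higher and 1 lower, against 12.2% of all genes; DESeq2 called 1 lower, against 4.38%; edgeR called 0), and the median log2 difference was -0.13. Tsc22d1, the most abundant, differed by 0.27 (SE 0.14, limma adjusted p = 0.493). Fkbp4, whose FKBP52 protein competes with that of Fkbp5 for the receptor complex, was at 3487, 3394 and 3549 against 3321, 3668 and 3457 normalized counts (95% interval of the log2 difference -0.15 to 0.15). Per2 differed by -0.13 (95% interval -0.64 to 0.39) and Sgk3 by 0.12 (95% interval -0.11 to 0.35). Cebpb was at 119, 219 and 70.8 against 242, 256 and 95.2 normalized counts, too spread for an order.

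Because Per1 belongs to the clock as well, the other clock genes were read beside it. Of 17 tested, 1 passed limma, higher, against 0.0726% of all genes: Bhlhe40, a clock repressor, rose from 648, 597 and 802 normalized counts in the controls to 1244, 1337 and 1223 in the labelled deficient libraries (log2 difference 0.90, SE 0.12, limma adjusted p = 0.0455). Leaving out 1 library moved that p between 0.0237 and 0.174, and the call held only without labelled deficient replicate 3 or without control replicate 3. The unadjusted p was under 0.05 in 5 higher and 2 lower clock genes, against 12.2% of all genes, DESeq2 called 3 higher and 1 lower, against 4.38%, and edgeR called 0. Dbp, an output factor of the clock, was at 1797, 3722 and 3828 normalized counts in the labelled deficient libraries and at 666, 392 and 2348 in the controls (log2 difference 1.79, SE 0.61, limma adjusted p = 0.293). Nfil3, its antagonist, was at 301, 206 and 219 against 729, 1239 and 487 (log2 difference -1.67, SE 0.31, limma adjusted p = 0.098).

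Control replicate 3 was the highest control in 10 of the 17 clock genes, against 32.1% of all genes tested. Among them are Dbp, Per3, Nr1d1, Nr1d2, Bhlhe41 and Ciart, where it was 0.42 to 1.47 above the control mean on the log2 scale. It was the lowest control in 6 of the 17, against 31.1% of all genes. It is the same library in which Zbtb16, Pdk4, Tsc22d3 and Errfi1 are near or within the labelled deficient levels. Fkbp5, Cebpd and Hsd11b1 stood there at 2.50, 1.90 and 2.06 times the labelled deficient mean, and Per1 and Sgk1 at 1.37 and 1.19 times. The hour of tissue collection is unknown here, and its part in the members' values was not tested.

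**Figure D4:**
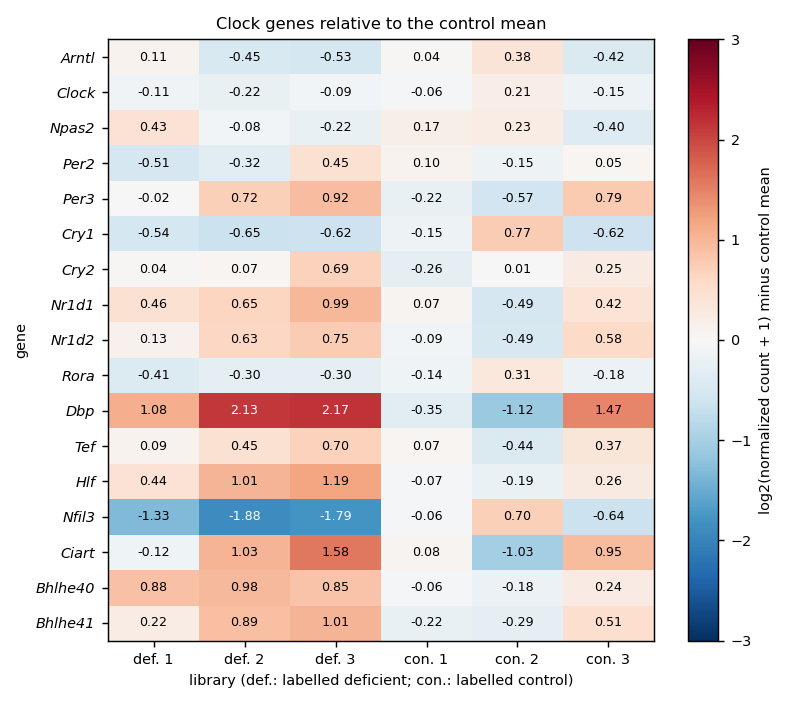
Each cell gives log2(normalized count + 1) of a clock gene (rows) in a library (columns) minus the mean of the 3 labelled controls, also shown by colour. Dbp is at 1.47 in control replicate 3 and at -0.35 and -1.12 in control replicates 1 and 2, and Nfil3 is below -1.3 in all 3 labelled deficient libraries.

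Several members are also fat cell genes, and fat markers varied between libraries. The 8 adipocyte markers summed to 2706, 23669 and 2253 normalized counts in the labelled deficient libraries. In the controls they summed to 11177, 69919 and 16524. Of the 8, 1 was lower without overlap (8.24% of all genes). Adipoq, the adipocyte hormone gene, was at 13.3, 1711 and 1.01 against 575, 5082 and 1009.9. Within each group the library with the highest adipocyte sum, replicate 2, also had the highest Pdk4 and Hsd11b1. The other 2 controls did not follow that order. Replicate 1, with the lowest adipocyte sum of the controls, had 4123 normalized counts of Pdk4 and 311 of Hsd11b1. Replicate 3 had 1072 and 258. The 4 brown adipocyte markers summed to 564, 10356 and 1311 normalized counts in the labelled deficient libraries. In the controls their sums were 3856, 10357 and 1242, the order in which Pdk4 and Hsd11b1 also ran there. Among the labelled deficient libraries Hsd11b1 ran in the order of the brown sums and Pdk4 did not. The order of replicates 1 and 3 there rests on Dio2 (408 and 795) and Cidea (148 and 512). Ucp1 was at 7.60, 7079 and 5.05 in the labelled deficient libraries and at 1711, 5365 and 0 in the controls. By Ucp1 the labelled deficient order was that of Pdk4 and not of Hsd11b1, on few counts in replicates 1 and 3. Elovl3 was also at 0 in some libraries. Labelled deficient replicate 2 had 8.75 times the adipocyte sum of replicate 1, with 312 against 332 normalized counts of Cebpd. Fabp4 was the largest part of each adipocyte sum, at 1930, 12090 and 1705 in the labelled deficient libraries. In the controls it was at 7536, 30878 and 8228. Single markers differed more between labelled deficient replicates 2 and 1 than the sum did, as in Adipoq (1711 against 13.3) and Plin1 (1487 against 8.54). For Zbtb16 the control with the smallest adipocyte sum, replicate 1, was the highest library. The part of fat cells in the members' values was not tested. In bulk tissue, fewer cells of a type and less RNA per cell cannot be told apart.

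**Figure D5:**
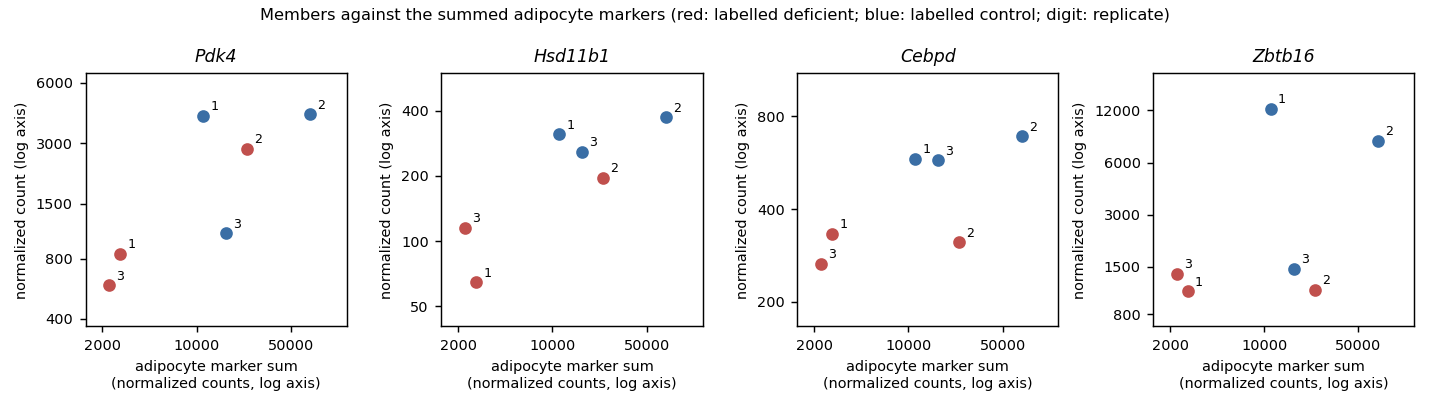
Normalized counts of 4 members (vertical axes, log scale) against the summed counts of 8 adipocyte markers (horizontal axes, log scale), 1 point a library, red labelled deficient and blue labelled control. The adipocyte sums run from 2253 to 23669 in the labelled deficient libraries and from 11177 to 69919 in the controls. Fabp4 is the largest part of each sum. The groups overlap along the horizontal axis only through labelled deficient replicate 2. Labelled deficient replicates 1 (2706) and 3 (2253) lie below every control.

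Blood markers differed between the groups as well. The 5 erythroid markers summed to 1650.1 to 11075 normalized counts in the labelled deficient libraries and to 92905 to 288940 in the controls, all 5 lower without overlap, and the 6 neutrophil markers to 136 to 204 against 447 to 1074, 4 of them lower without overlap and Ly6g at 0 in some library. Of all genes tested, 8.24% lay lower without overlap and 8.8% higher. Their part in the members' values was not tested. Control replicate 3, where 8 members were lowest among the controls, had the highest erythroid sum. The 7 T and NKT cell markers, given because Zbtb16 is known for its role in NKT cells, summed to 80.9 to 205 normalized counts in the labelled deficient libraries and to 71.0 to 162 in the controls. Of these, 2 (Cd3d and Klrb1c) were lower and 1 (Cd4) higher without overlap. Cd4 was a large part of the labelled deficient sums, at 144, 144 and 30.3 against 26.7, 28.8 and 22.0. Klrb1c had few counts, at 2.85, 3.24 and 3.03 against 19.8, 3.33 and 4.01. The 7 fibroblast markers summed to 14454 to 22604 against 20588 to 27537, with 2 lower without overlap, and the 6 skeletal and cardiac muscle markers to 329 to 527 against 460 to 685.

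The genes most like Cebpd across the 6 libraries, by root mean square distance between centred log2 profiles among 11156 genes, were Gda (0.08), Igfbp4 (0.10) and Ism1 (0.13). Gda, which encodes guanine deaminase, was at 1057, 847 and 775 normalized counts in the labelled deficient libraries and at 1782, 1977 and 1794 in the controls. Igfbp4, a binding protein of insulin-like growth factors, was at 3698, 3226 and 2774 against 6068, 6732 and 5086. The nearest to Zbtb16 were Tent5b (0.59), Has3 (0.60) and the member Fkbp5 (0.72), at much larger distances, over a Zbtb16 log2 range of 3.50. Has3, a hyaluronan synthase, was at 31.3, 54.0 and 59.6 normalized counts against 370, 164 and 109, again with control replicate 1 highest and replicate 3 lowest among the controls. Since Cebpd and Zbtb16 were chosen for their difference between the groups, genes near them share that difference by construction.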

How the data were processed

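Aortic RNA of 6 libraries was made with a stranded mRNA kit and sequenced as paired reads of 50 bp, per the labels' protocols. Reads were handled with HISAT2 2.2.1, bcl2fastq 2.20, R 4.2.0, featureCounts 2.0.1 and DESeq2 1.36.0 on build GRCm38, as the submitters' processing notes list them, in no stated order; annotation and strand setting were not given in the sources used here. The deposited signal is a count per gene that the authors divided by 1 size factor per library. The authors' deposited log2 fold change, p-value and adjusted p-value were not used as results. All values above 0 (100% in each library, tolerance 0.001) were whole multiples of the smallest one, which gave recovered reads. In labelled deficient replicate 3 and control replicate 3 that step is close to 1 (1.01 and 1.002). No pair of libraries was a duplicate: chi-square over its degrees of freedom was 25.4 to 112.

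Genes with a mean of at least 1 were fitted on log2(normalized count + 1) with limma 3.58.1 (eBayes, trend), two-sided, with Benjamini-Hochberg adjustment over 20669 genes. Errors beside means are SDs, and SE is that of the moderated log2 difference. This scale understates changes of low genes. edgeR 4.0.16, DESeq2 1.42.0 (R 4.3.3, Python 3.11.15), pseudocounts, filters, scalings and left-out libraries were alternatives. The fits were also run on simulated counts with the same dispersion for every gene and no sex, fat or blood differences. That run does not show how the fits perform on these libraries. Replicates are numbered in accession order; nothing says that libraries are separate animals, so p-values reflect the spread between libraries, which may be technical. Symbols missing for 3422 genes were filled by gene ID for 3304.

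The members and lists were chosen with earlier results of these data known. Named genes were the members, label checks, up to 3 called genes a list with the lowest p or otherwise the 2 most abundant, and the 3 profiles nearest to Cebpd and Zbtb16 (predicted genes left out); others are marked in the text.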

Additional observations from a re-analysis of the deposited data

How the results depend on the processing

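The members were read under 15 alternatives, which leave out the Y-linked covariate and robust eBayes. Their values adjusted for the Y-linked covariate were thus not read. The median log2 difference of the members kept its sign and moved by less than 1 SD in all 15 (-0.76 to -1.16). That SD, 0.36, is the within-group spread of the libraries' member medians. Of 150 single-member values under alternatives, 0 changed sign and 2 moved by over 1 SD. Both were in the 4 libraries with Y-linked expression: Fkbp5 to -1.31 and Cebpd to -1.21. Here the SD is each gene's own within-group SD, so Zbtb16 (SD 1.16) counts as unmoved although it ran from -1.53 to -3.07. Filters cannot change a member's log2 difference, and the scalings shifted the median of all genes by only 0.0013 and -0.016. Much of this stability was therefore given in advance.

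The count of genes called, 28 as reported, was 91 with no filter on low values, 1 with a mean of at least 10, 74 with robust eBayes, 713 with DESeq2 and 1 with edgeR. It was 0 with the 4 Y-linked libraries or a Y-linked covariate, and 0 to 434 with 1 library left out. Over fits with 1 library left out, the calls among other induced targets were 0 to 2, among repressed targets 0 to 2 and among clock genes 0 to 1. Among other induced targets, 2 as reported, limma called 1 with a mean of at least 10 and 0 in the Y-linked libraries, edgeR called 1 and DESeq2 8. Among clock genes, 1 as reported, the count was 0 with a mean of at least 10, with equal totals, in the Y-linked libraries and with edgeR, and 4 with DESeq2. Repressed targets, 0 as reported, had 1 with no filter and 3 with DESeq2; receptor machinery and paralogs, 0 as reported, each had 1 with DESeq2. The cause was not tested. The fit in the Y-linked libraries holds 1 labelled deficient library, assumed to vary like the controls. No paired analysis was possible because the labels carry no replicate numbers.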
